A study of Mus musculus with 19 samples.

Results

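The INK4 and KIP inhibitors of cyclin-dependent kinases and the RB family of pocket proteins were examined across all 4 groups of the study. The members were 9 genes, Cdkn2a, Cdkn2b, Cdkn2c, Cdkn2d, Cdkn1b, Cdkn1c, Rb1, Rbl1 and Rbl2. They were taken by name, but the set was chosen with earlier results of these data known. Every array probe that the scanner files assign to one of these names was kept, which gave 14 probes of the 41174 on the array. RNA of 19 samples was hybridised to mouse gene expression arrays from Agilent, each sample to an array of its own and in a single colour. The cell groups were C2C12 cells, a mouse skeletal myoblast line, carrying stably selected plasmids for human wild-type HDAC4 (pIRES neo3) and HDAC5 (pIRES hyg3), or the empty plasmids in control cells, with 6 arrays in each group. Both were kept in Hygromycin B and Geneticin in MEM alpha growth medium and harvested 48 h after seeding, and the labels do not say whether a line was a clone or a pool. The muscle groups were soleus, a slow postural muscle, of male db/db mice on C57BL6J, which lack a working leptin receptor in the whole body, with 4 arrays, and of heterozygous littermates, with 3 arrays, all at 12 weeks of age after a fast of 5 h. The labels do not say that arrays of a group came from separate cultures, and the methods speak of 3 biological replicates in a group. Some of the 6 arrays of a cell group may therefore share a culture, in which case the p-values for cells are too small. In whole cultures and whole muscle, fewer cells of a type and less RNA per cell cannot be told apart.

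These proteins set the brake on entry into S phase. INK4 proteins bind CDK4 and CDK6 and keep D-type cyclins from activating them, whereas KIP proteins act on cyclin and CDK complexes more widely. RB family proteins bind E2F factors and hold their target genes down until CDKs phosphorylate them, and in skeletal muscle the RB protein and the CDK inhibitors are known for the exit of myoblasts from the cell cycle during differentiation.

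Levels are given as log2 of the processed intensity minus log2 of the 75th percentile of all probes on the same array, so that 0 is the level of that percentile. They compare arrays for 1 probe, not probes with each other. The 75th percentile lay between 494 and 1691 intensity units on the C2C12 arrays and between 153 and 686 on the soleus arrays. The soleus arrays lay on 2 slides. Control arrays 1 and 2 with db/db arrays 1 and 2 had percentiles of 153 to 232, and control array 3 with db/db arrays 3 and 4 had 555 to 686. Hdac5 was higher in the HDAC4 and 5 cells by 1.42 on the log2 scale (SE 0.27, limma adjusted p = 0.000388), and the mouse Hdac4 probe differed by -0.05 (adjusted p = 0.366), where the plasmids carry human coding sequence. Of 8 myoblast markers, 6 were well above background on every control C2C12 array and 4 on every HDAC4 and 5 array, Myod1 on none of the latter. The summed level of this list, in multiples of the 75th percentile, was 87.7 to 201 in control cells and 5.36 to 7.24 in HDAC4 and 5 cells. All 9 markers of slow muscle were well above background on every soleus array and every control C2C12 array and 4 of the 9 on every HDAC4 and 5 array, with summed levels of 28.8 to 45.8 in control cells and 1.41 to 1.61 in HDAC4 and 5 cells. The part of these lists in the cell results below was not tested.

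The sequences below are those of the probes for Rb1, Cdkn1b and Cdkn2c, shown because probes of the same gene read different stretches of the transcript and gave different or shared answers. All letters are lower case, positions are on mm9 as the files give them, and the 2 probes in coding sequence are printed whole. The Rb1 coding probe lies at chr14:73662360-73662419 on the minus strand, 66952 bases upstream of the Rb1 3′ probe at chr14:73595408-73595467. The Cdkn1b coding probe lies at chr6:134871103-134871161 on the plus strand, 4112 bases upstream of the Cdkn1b 3′ probe at chr6:134875215-134875274. The Cdkn2c probes, at chr4:109333779-109333838 and chr4:109333757-109333818 on the minus strand, share 40 bases and differ in 20, so they are not independent readings.
Rb1 coding probe, whole: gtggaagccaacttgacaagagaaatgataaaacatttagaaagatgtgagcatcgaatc
Rb1 3′ probe, first 30 bases: attttcagagatcctgcttcgagatttctt
Cdkn1b coding probe, whole: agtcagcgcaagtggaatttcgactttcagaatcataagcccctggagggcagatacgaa
Cdkn1b 3′ probe, first 30 bases: ttcattgcctgtgtatgagaaaaacttgga
Cdkn2c probe 1, the 20 bases it does not share: tctcactgacctcacactgt
Cdkn2c probe 2, the 20 bases it does not share: aaatatagggtttcttcgct

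In C2C12 cells, overexpression of HDAC4 and 5 went with less Rb1, Cdkn1b and Rbl2 RNA and with slightly more Cdkn2c and Rbl1 RNA. The Rbl2, Cdkn2c and Rbl1 differences did not pass under every way of processing, as given below. Cdkn2a, Cdkn2b and Cdkn1c had signals too near the background on all C2C12 arrays. Of the 14 member probes, 9 were tested because their signal was well above background on all arrays of 1 or both C2C12 groups, and 8 passed an adjusted p of 0.05 in limma, 3 higher and 5 lower. The background is high here, since 68.4% of the 21432 probes tested passed, 36.5% higher and 31.9% lower. Among the member probes 6 did not overlap between the groups, 2 higher and 4 lower, against 52.4% of all probes tested, 27.4% higher and 25% lower. The remaining 5 member probes, those of Cdkn2a, Cdkn2b and Cdkn1c, the Rb1 coding probe and a further Cdkn1b probe at chr6:134873606-134873665, were too dim to be tested in cells. The median difference over all probes tested was 0.05 on the log2 scale.

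**Figure D1:**
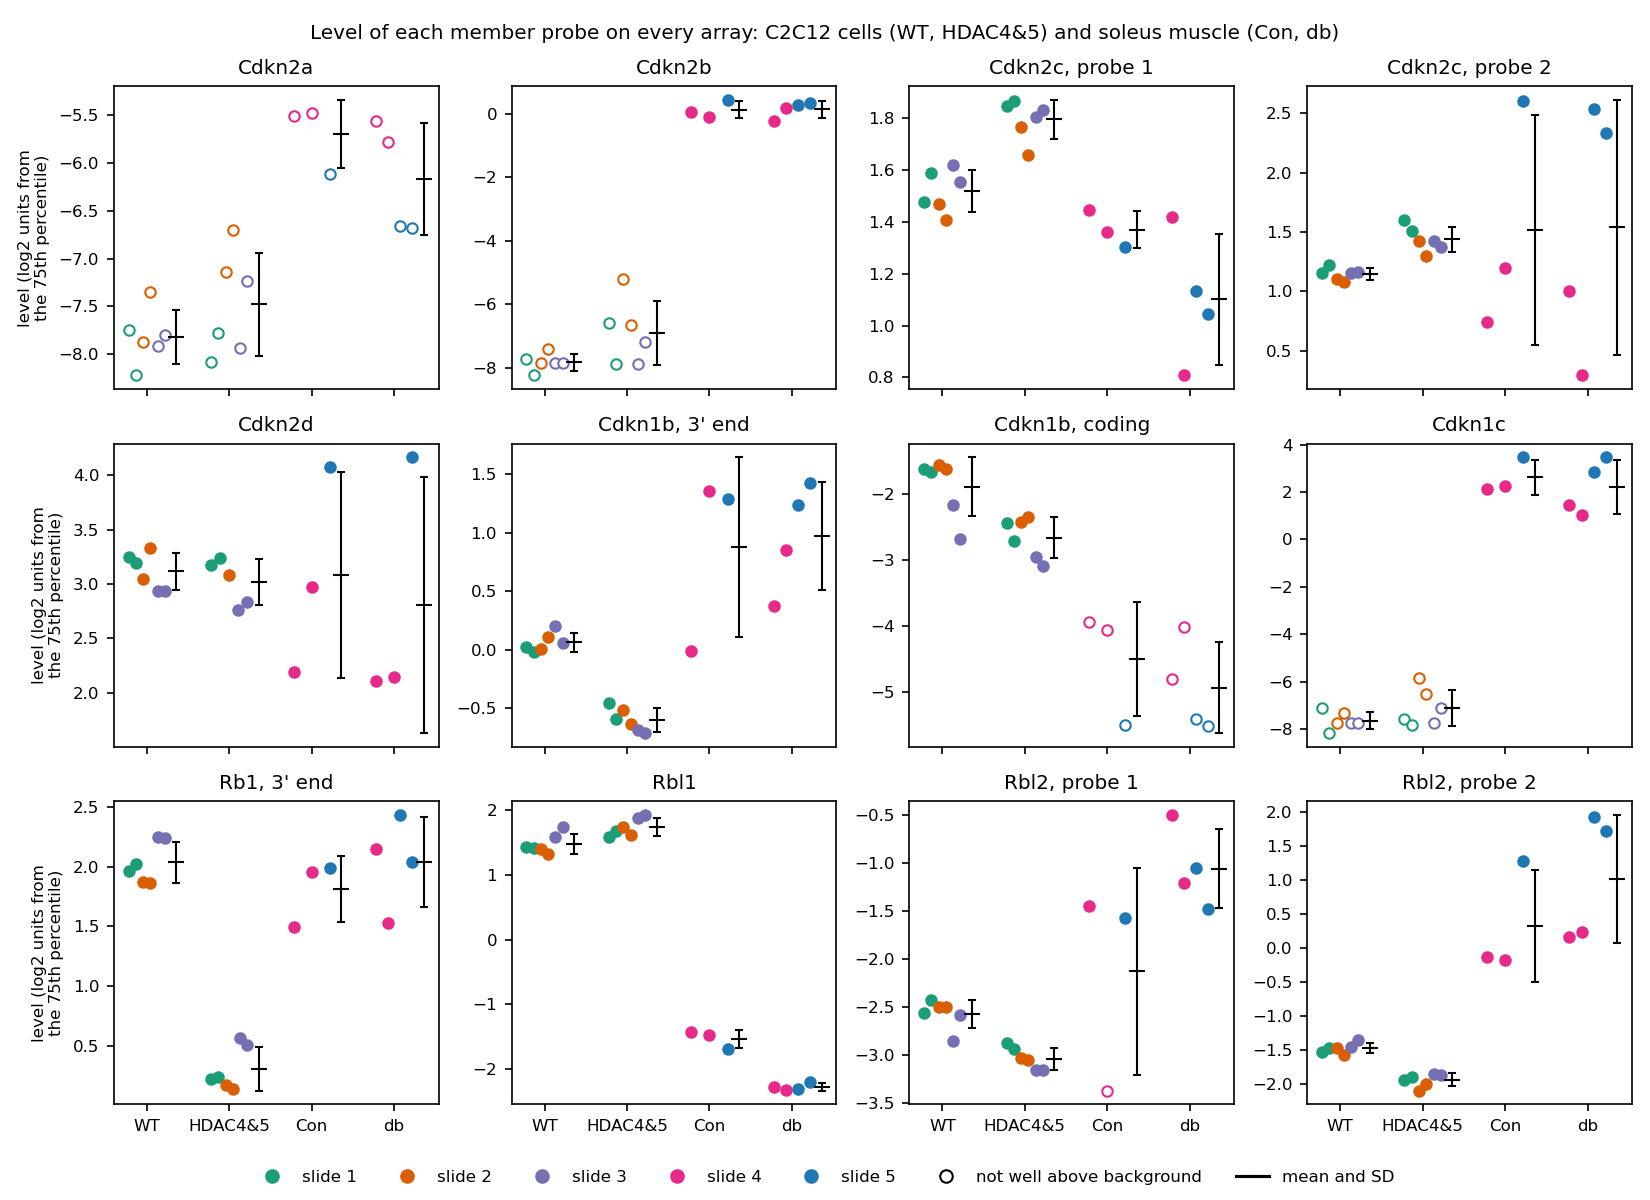
Levels of member probes on each of the 19 arrays, as log2 distance from the array's 75th percentile (vertical axis, panels have their own scales). Shown are the probes well above background in at least 1 group and that of Cdkn2a, which was not so on any array. Points are arrays by group, open points are not well above background, and bars are group means with SD. The Rb1 points of the HDAC4 and 5 cells lie between 0.14 and 0.57, below every other array, whose lowest is 1.50.

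Rb1, the founding pocket protein, showed the largest difference among the members in cells. Its 3′ probe gave levels of 1.86 (lowest), 1.99 (median) and 2.25 (highest) on control arrays and of 0.14, 0.24 and 0.57 on HDAC4 and 5 arrays. The groups were far apart, with more than a log2 unit between the lowest control array and the highest HDAC4 and 5 array. The difference was -1.72 (SE 0.10, limma adjusted p = 3.92e-09), a level 3.30-fold lower, with n = 6 in each group. A two-sided exact permutation test gave p = 0.00216, the smallest that 6 against 6 arrays allow. Within the 3 slides, each of which held both groups, the Rb1 differences were -1.76, -1.71 and -1.71. As low or lower differences were found for 1403 of the 21432 probes tested, or 6.55%. The Rb1 coding probe was not well above background on any of the 19 arrays and gave no reading of this difference.

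Rbl1 encodes p107, the pocket protein that cycling cells make most and that is itself a target of E2F. Its levels were 1.32, 1.42 and 1.74 on control arrays and 1.59, 1.71 and 1.92 on HDAC4 and 5 arrays, again as lowest, median and highest. The groups overlapped, because control array 6 was higher than several HDAC4 and 5 arrays. The difference was 0.26 (SE 0.08, adjusted p = 0.0143), or 1.20-fold, and the exact permutation test gave p = 0.0152. The probe lies at chr2:156972143-156972202 on the minus strand. This call was lost with quantile normalization (adjusted p = 0.0533), with normexp background correction (0.248) and in the deposited matrix (0.697).

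Rbl2 encodes p130, the pocket protein of resting cells and the core of the DREAM repressor complex. Its 2 probes lie 758 bases apart, at chr8:93646362-93646421 (probe 1) and chr8:93647120-93647179 (probe 2) on the plus strand. Probe 1 ran from -2.85 through a median of -2.53 to -2.43 on control arrays and from -3.16 through -3.04 to -2.88 on HDAC4 and 5 arrays. Probe 2 ran from -1.57 through -1.47 to -1.35 on control arrays and from -2.10 through -1.92 to -1.85 on HDAC4 and 5 arrays. Every HDAC4 and 5 array was below every control array on both probes. The differences were -0.47 for probe 1 (SE 0.08, adjusted p = 0.000123) and -0.47 for probe 2 (SE 0.06, adjusted p = 7.64e-06), each 1.38-fold lower, with an exact permutation p = 0.00216 for each. With normexp background correction neither call held, the differences being 0.06 (adjusted p = 0.830) and -0.15 (0.387).

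Cdkn1b encodes p27, the KIP inhibitor that accumulates in resting cells. Its 3′ probe ranged from -0.02 through a median of 0.04 to 0.20 on control arrays and from -0.71 through -0.61 to -0.45 on HDAC4 and 5 arrays, so that the groups did not overlap. The coding probe ranged from -2.69 through -1.66 to -1.58 and from -3.10 through -2.58 to -2.35. On that probe the groups overlapped, since the lowest control array lay among the HDAC4 and 5 arrays. Both probes were lower in HDAC4 and 5 cells, the 3′ probe with a difference of -0.66 (SE 0.06, adjusted p = 3.46e-07, exact permutation p = 0.00216), 1.58-fold, and the coding probe with one of -0.77 (SE 0.20, adjusted p = 0.00442, exact permutation p = 0.0130), 1.70-fold. The coding call was lost with normexp background correction, at -0.30 (adjusted p = 0.271). The further Cdkn1b probe was well above background on 1 of the 19 arrays, control C2C12 array 3. Cdkn1c encodes p57, an imprinted KIP inhibitor, and its probe at chr7:150644753-150644812 was not well above background on any C2C12 array.

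Cdkn2c encodes p18, an INK4 inhibitor of CDK4 and CDK6. Its probe 1 read 1.41, 1.51 and 1.62 on control arrays and 1.66, 1.82 and 1.87 on HDAC4 and 5 arrays, as lowest, median and highest. Probe 2 read 1.08, 1.16 and 1.22 against 1.30, 1.42 and 1.60. Neither probe's groups overlapped. The gains were 0.28 (SE 0.05, adjusted p = 0.000510) and 0.29 (SE 0.06, adjusted p = 0.000404), 1.21- and 1.22-fold, with an exact permutation p = 0.00216 for each. Both calls were lost with normexp background correction (adjusted p = 0.205 and 0.170) and in the deposited matrix (0.626 and 0.571). Cdkn2d encodes p19, a further INK4 inhibitor, and its probe at chr9:21092980-21093039 ranged from 2.93 to 3.33 on control arrays (median 3.12) and from 2.76 to 3.24 on the 5 HDAC4 and 5 arrays that measured it (median 3.08). These ranges overlapped, and the difference was -0.09 with a 95% interval of -0.33 to 0.14 (adjusted p = 0.457).

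Cdkn2a, which encodes the INK4 protein p16 and the unrelated ARF protein from overlapping transcripts, was not well above background on any of the 19 arrays. Its probe at chr4:88920545-88920604 was printed as 10 spots per array. Whether it separates the p16 from the ARF transcript was not tested. Cdkn2b encodes p15, and its probe lies 31892 bases from that of Cdkn2a, at chr4:88952437-88952496. It was not well above background on any C2C12 array and was well above background on all 7 soleus arrays. Within 250 kb of these probes the array carried 1 other gene, Mtap, which encodes a methylthioadenosine phosphorylase. Mtap was well above background on every array, with a mean level of 2.35 in control cells and 2.05 in HDAC4 and 5 cells (difference -0.30, limma adjusted p = 0.000462) and of -0.60 and -1.38 in control and db/db soleus (adjusted p = 0.806).

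**Figure D2:**
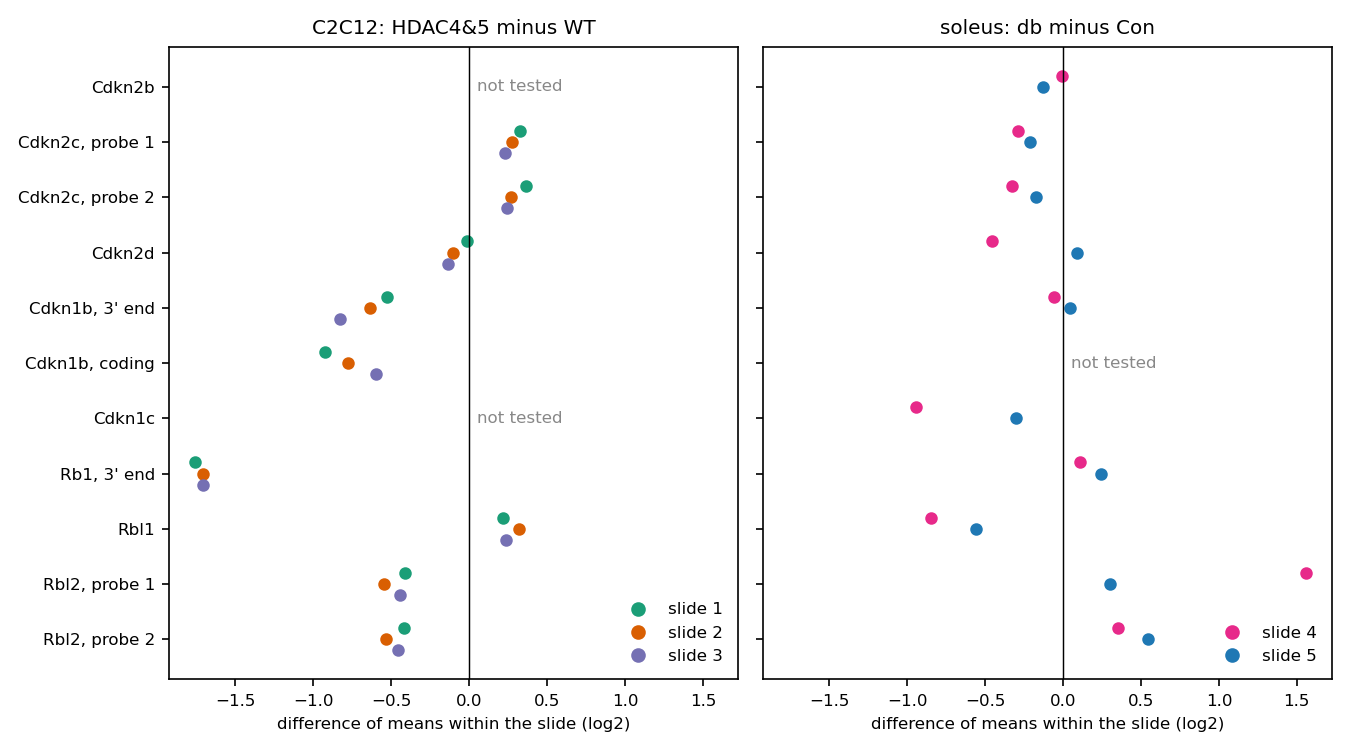
Differences of means within each slide (log2, horizontal axis), 1 symbol per slide. The left panel gives HDAC4 and 5 minus control C2C12 arrays on 3 slides, with 9 member probes tested. The right panel gives db/db minus control soleus on 2 slides, and probes not tested are marked so. In cells the 3 Rb1 symbols sit together between -1.76 and -1.71, and all 8 probes that passed the adjusted p have the same sign on the 3 slides.

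The cell calls did not come from a single slide or array. All 8 called member probes kept their sign within each of the 3 slides, where 14387 of the 14650 called probes of the whole array (98.2%) did so too. The count of called members was 8 whichever C2C12 array was left out. Processing changed more calls. With normexp background correction 2 member probes passed, the 3′ probes of Rb1 and Cdkn1b, both lower, beside 48.9% of all probes tested, 20.8% lower. In the deposited matrix 5 passed, all lower, beside 48.9% of all probes, 29.7% lower. With the 2 arrays of a group on a slide averaged, which leaves 3 values in each group, 7 member probes passed beside 57.4% of all probes, and the Rbl1 call was lost (adjusted p = 0.105). The Rb1 difference ranged from -1.92 to -1.68 over its 27 alternatives and the 3′ Cdkn1b difference from -0.84 to -0.53.

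**Figure D3:**
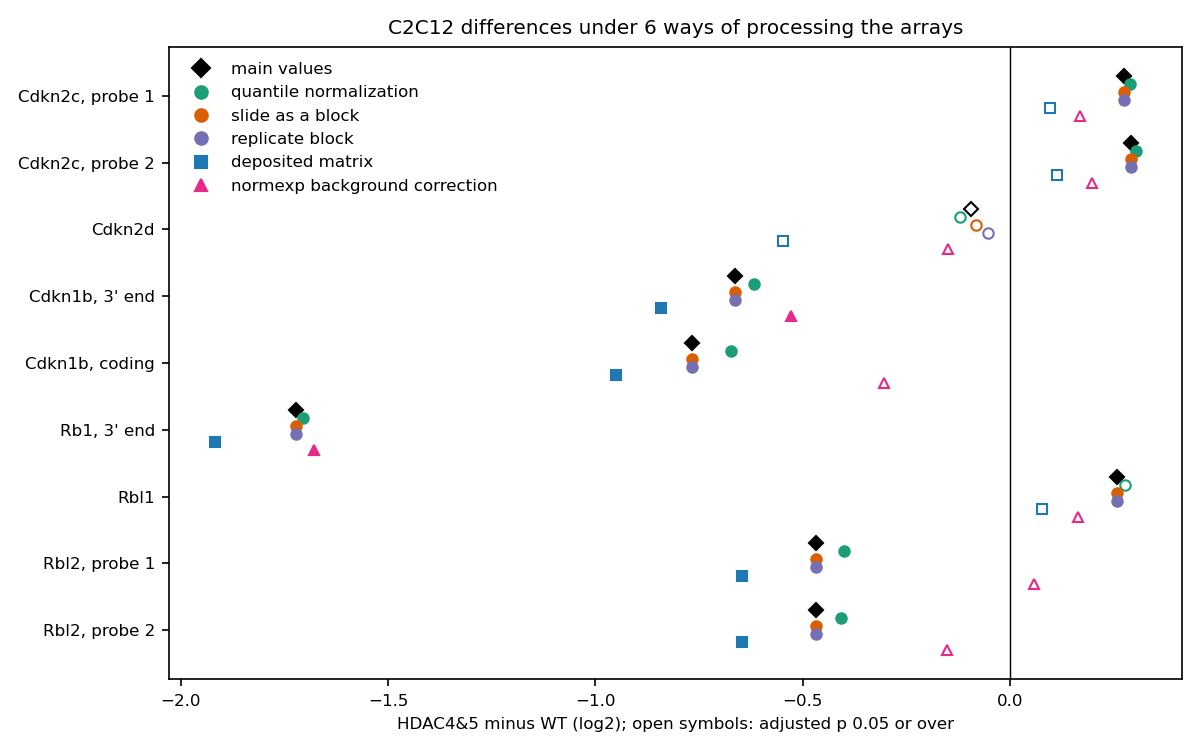
Difference between HDAC4 and 5 and control C2C12 cells (log2, horizontal axis) for the 9 member probes tested, with 1 symbol for each of 6 ways of processing the arrays. Filled symbols had a limma adjusted p under 0.05 and open ones did not; the open triangles of the Rbl2, Rbl1, Cdkn2c and Cdkn1b coding probes are the calls lost with normexp background correction.

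In soleus muscle, none of the 10 member probes tested passed the adjusted p between db/db and control mice, where 1 of 18472 probes of the array did (0.00541%). At an unadjusted p under 0.05 in limma 1 member probe, that of Rbl1, passed beside 6.44% of all probes tested, and the methods' t-test gave 1 member at an unadjusted p, beside 7.58% of all probes, and 0 after adjustment. The 4 member probes not tested in muscle were those of Cdkn2a, the Rb1 coding probe and the Cdkn1b coding and further probes. A test of 3 against 4 arrays cannot give an exact two-sided permutation p under 0.0571. With the slide as a block 32 probes of the array passed (0.173%), none of them a member.

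**Figure D4:**
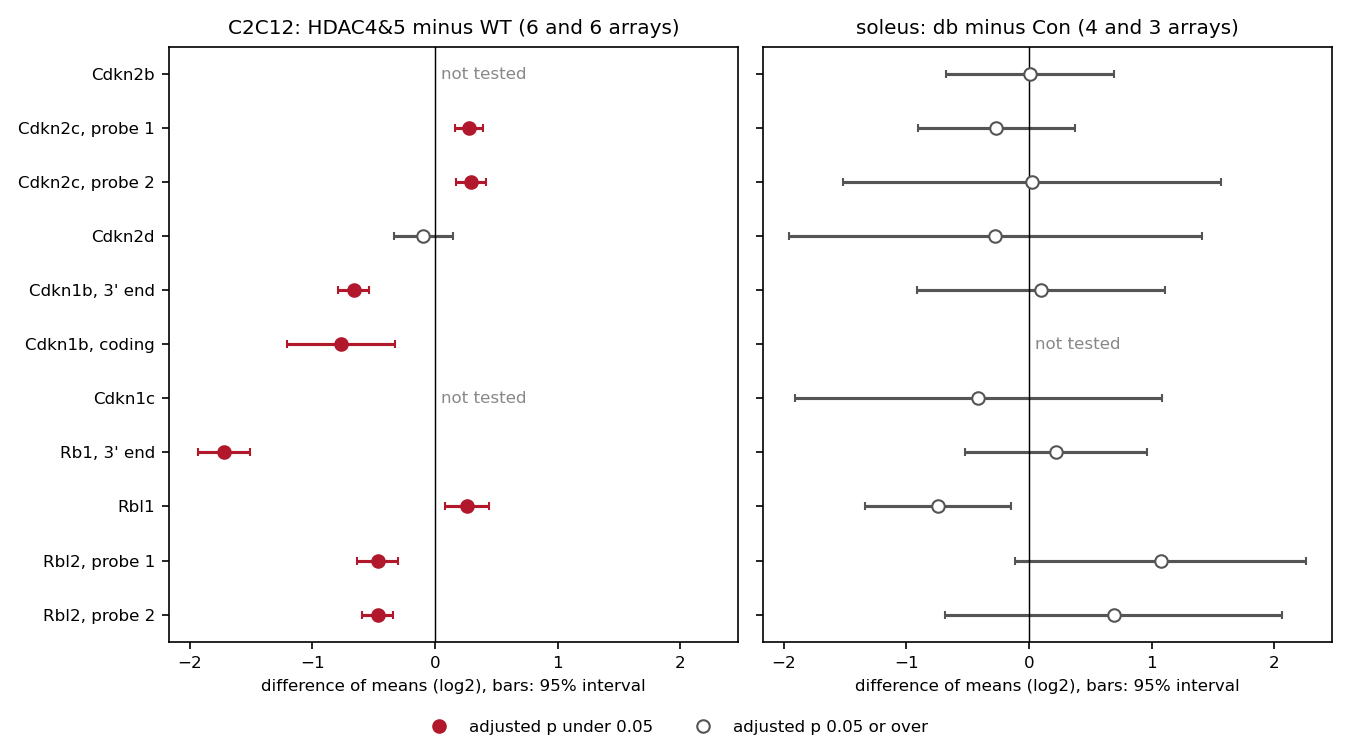
Difference of means (log2, horizontal axis) with its 95% interval for each member probe, for HDAC4 and 5 against control C2C12 cells on the left and for db/db against control soleus on the right. Filled points had a limma adjusted p under 0.05; the 8 filled points are in cells, and the muscle intervals are wider, with only that of Rbl1 (-1.34 to -0.15) leaving out 0.

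Rbl1 was at -1.43, -1.47 and -1.69 on control soleus arrays 1 to 3 and at -2.27, -2.33, -2.30 and -2.20 on db/db arrays 1 to 4. All db/db arrays were below all control arrays. Of all probes tested, 10.2% did not overlap between the muscle groups, 4.47% with db/db below. The difference was -0.74 (SE 0.26), 1.67-fold lower, with an unadjusted p of 0.0203 and an adjusted p of 0.680 in limma and an exact permutation p = 0.0571, the smallest possible. It was -0.85 within the first muscle slide and -0.56 within the second. With the slide as a block the adjusted p was 0.143, and over the alternatives that adjust it the value ran from there to 1.00.

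Rbl2 probe 1 was at -1.45, -3.37 and -1.57 on control arrays and at -0.49, -1.20, -1.05 and -1.47 on db/db arrays. The value of control array 2 was not well above background, and the groups overlapped. The difference was 1.07 with a 95% interval of -0.12 to 2.26 (adjusted p = 0.798), 1.56 within the first slide and 0.30 within the second. Without control array 2 it was 0.45. Probe 2 was at -0.14, -0.17 and 1.28 on control arrays and at 0.16, 0.23, 1.94 and 1.72 on db/db arrays. Its high values were those of the second slide in both groups, and its difference was 0.69 (95% interval -0.68 to 2.06, adjusted p = 0.902). Rb1 was at 1.50, 1.96 and 1.99 on control arrays and at 2.14, 1.53, 2.43 and 2.04 on db/db arrays. These overlapped, with a difference of 0.22 and an interval of -0.52 to 0.96 (adjusted p = 0.946).

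Among the inhibitors in muscle, Cdkn1c was at 2.13, 2.27 and 3.47 on control arrays and at 1.47, 1.03, 2.86 and 3.46 on db/db arrays. Its groups overlapped, and the difference was -0.41 with a 95% interval of -1.91 to 1.08 (adjusted p = 0.948). Cdkn1b at its 3′ probe was at -0.01, 1.35 and 1.28 against 0.38, 0.85, 1.23 and 1.42, with a difference of 0.10 (interval -0.92 to 1.11). Control array 1 stood below the other 6 muscle arrays for Cdkn1b. Cdkn2b was at 0.05, -0.11 and 0.43 against -0.24, 0.17, 0.26 and 0.34, with a difference of 0.01 (interval -0.68 to 0.70). Cdkn2d was at 2.19, 2.97 and 4.08 against 2.10, 2.15 and 4.16, with db/db array 3 not measured, and a difference of -0.27 (interval -1.96 to 1.41).

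Both Cdkn2c probes were bright in muscle but did not move together there. Probe 1 was at 1.44, 1.36 and 1.30 on control arrays and at 1.42, 0.81, 1.13 and 1.04 on db/db arrays, a difference of -0.27 (95% interval -0.91 to 0.37, adjusted p = 0.915). Probe 2 was at 0.74, 1.19 and 2.61 against 1.00, 0.29, 2.53 and 2.33, a difference of 0.02 (interval -1.52 to 1.56). From the first to the second muscle slide the mean level of probe 2 changed by 1.68 and that of probe 1 by -0.10, although the probes share 40 of their bases. Mean levels also differed by slide for Cdkn2d (1.77), Rbl2 probe 2 (1.63) and Cdkn1c (1.54), and by -0.19 for Rbl1. The part of the slide in these muscle values was not tested beyond the block and the within-slide differences.

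The response of the members was compared directly between the 2 data sets, as the db/db difference minus the HDAC4 and 5 difference in a limma fit over all 19 arrays. Of 11 member probes tested 4 passed, 2 higher and 2 lower, beside 27.5% of all 23218 probes, 14.1% higher and 13.4% lower. Cdkn1c and Cdkn2b were tested here through muscle alone and the Cdkn1b coding probe through cells alone, so 1 of their 2 differences was read near background. The stricter filter, which asks for signal in all 4 groups, left 7 member probes, of which 3 passed, 1 higher and 2 lower. Beside them 27% of 13684 probes passed, 14.6% higher and 12.3% lower. Rb1 differed between the data sets by 1.94 (SE 0.25, adjusted p = 8.32e-06), being lower in HDAC4 and 5 cells and not in db/db muscle. Rbl1 also differed between them (adjusted p = 0.000277), with a difference of 0.26 in cells and of -0.74 in muscle. Rbl2 probe 1 differed by 1.54 (SE 0.42, adjusted p = 0.00904), and by 0.92 without control soleus array 2 (adjusted p = 0.0131). Cdkn2c probe 1 differed by -0.54 (SE 0.18, adjusted p = 0.0304). Of these the Rb1 call held under each of its 25 alternatives. The Rbl1 call was lost with a weight per data set, which lets muscle arrays vary more (adjusted p = 0.0979), and with normexp background correction (0.104), and the Rbl2 call with normexp background correction (0.26, adjusted p = 0.674). That of Cdkn2c probe 1 was lost with 8 of 25 alternatives, among them the omission of control soleus array 1 (adjusted p = 0.0676) or db/db array 2 (0.0566). Rbl2 probe 2 (1.16, adjusted p = 0.0845) and the 3′ probe of Cdkn1b (0.76, adjusted p = 0.111) did not pass. Cdkn2c probe 2, which shares bases with probe 1, did not pass either (-0.27, SE 0.55, adjusted p = 0.774). With the slide as a fixed block 7 member probes passed beside 45.4% of all probes, the further ones being Rbl2 probe 2 (0.90, adjusted p = 9.16e-06), Cdkn2c probe 2 (-0.56, 0.0234) and Cdkn1c (-1.23, 0.0267). Cdkn1c was not well above background on any C2C12 array, so the cell part of its call was read near background. A weight per data set left 2 members beside 13.4% of all probes, and normexp background correction left 1 beside 16.3%.

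Between control muscle and control cells, 7 member probes stood well above background throughout all 4 groups. Of these 3 passed the adjusted p, 2 higher and 1 lower in muscle, beside 70.6% of 13684 such probes, 33.3% higher and 37.3% lower. With probes bright in only some of the groups added, 6 of 11 passed beside 71% of 23218 probes, but the further 3, those of Cdkn1c, Cdkn2b and the Cdkn1b coding stretch, were tested only because 1 tissue was bright and so had to differ. Tissue and slide cannot be told apart in this comparison, because cells and muscle were on separate slides. With the processed intensities, Cdkn1c was at least 322-fold higher in control soleus than in control cells and Cdkn2b at least 57.1-fold higher. Both were taken against the dimmest probe that counted as well above background on each cell array. These bounds, 8.33 and 5.84 on the log2 scale, depend on the background method. The measured differences with normexp background correction were smaller than the bounds, at 5.87 and 3.85. Rbl1 was 8.05-fold lower in muscle (difference -3.01, adjusted p = 3.66e-13), and Rbl2 probe 2 was 3.48-fold higher (1.80, adjusted p = 0.000183). The median difference over all probes was -0.10, and it was -0.41 with quantile normalization and 0.37 with normexp background correction. The 3′ probe of Cdkn1b was higher in muscle by 0.81 (adjusted p = 0.00781). Its coding probe was not well above background on any muscle array, so the filter fixed its direction. With the processed intensities the coding probe was at least 3.09-fold lower in muscle. With normexp background correction its measured difference was -0.41 and did not pass (adjusted p = 0.331). Rb1 differed by -0.22 (95% interval -0.61 to 0.17, adjusted p = 0.301), and Cdkn2c, Cdkn2d and Rbl2 probe 1 did not pass either.

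Markers of other cell types were also read. All 6 endothelial markers were well above background on every soleus array and none on every C2C12 array, with a summed level of 21.1 to 30.9 in control soleus, 11.5 to 22.4 in db/db soleus and 0.0270 to 0.0577 in control cells. All 6 macrophage markers were also well above background on every soleus array, with sums of 35.97 to 119 in control and 41.1 to 108 in db/db soleus. On the C2C12 arrays 2 of the 6, Cd14 and Cd68, were well above background on every control array and 3 on every HDAC4 and 5 array, with sums of 1.91 to 2.43 and 5.68 to 7.06. Summed adipocyte markers were 226 to 441 in control soleus, 171 to 311 in db/db soleus and 4.39 to 5.45 in control cells. In the same order, fibroblast sums were 366 to 501, 156 to 440 and 76.1 to 141. Erythrocyte sums were 18.5 to 144, 81.8 to 150 and 0.537 to 0.721. The part of these cell types in the muscle levels of Cdkn1c and Cdkn2b was not tested.

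Ordered by group mean, Rb1 was highest in db/db soleus (2.04 ± 0.37, SD, n = 4), control cells (2.04 ± 0.17, n = 6) and control soleus (1.81 ± 0.27, n = 3), whose ranges overlapped, and lowest, with no overlap, in HDAC4 and 5 cells (0.31 ± 0.18, n = 6). Rbl1 was highest in HDAC4 and 5 cells (1.74 ± 0.14) and control cells (1.48 ± 0.15), whose ranges overlapped, then in control soleus (-1.53 ± 0.14) and lowest in db/db soleus (-2.27 ± 0.06), each apart from its neighbour. Rbl2 probe 2 had the reverse order of tissues, with db/db soleus (1.01 ± 0.95) and control soleus (0.32 ± 0.83) overlapping, control cells lower (-1.48 ± 0.08) and HDAC4 and 5 cells lowest (-1.94 ± 0.10). Cdkn1b at its 3′ probe was lowest in HDAC4 and 5 cells (-0.60 ± 0.10), apart from control cells (0.07 ± 0.08), and the ranges of control cells, control soleus (0.88 ± 0.77) and db/db soleus (0.97 ± 0.46) overlapped with their neighbours. For Cdkn2d no neighbours were apart.

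The genes whose levels most resembled those of a member were found by Pearson's r over the 19 arrays among 19218 probes, as a description without a test. All such values share the split between cells and muscle and the slides. Rbl1 was most like Tyms, the thymidylate synthase of S phase (r = 0.997), and Fam111a (0.996). Rb1 was most like Cdkl2 (0.982) and Gm7008 (0.977), Rbl2 probe 1 like Lysmd1 (0.971) and Tbcel (0.960), and Rbl2 probe 2 like Ensa (0.995) and Tefm (0.994). Among the inhibitors, Cdkn2b was most like Cd83 and Fmo1 (0.992 each) and Cdkn1c like B130040O20Rik and 9030418K01Rik (0.998 each). Cdkn2c probe 1 was most like Arhgap18 (0.958) and 2510003E04Rik (0.949), probe 2 like Spata7 (0.968) and Gpatch1 (0.967), and Cdkn2d, over the 17 arrays that measured it, like Btf3 (0.943) and Utp3 (0.932). The 3′ Cdkn1b probe was most like Borcs7 (0.973) and Msi2 (0.970), and the coding probe like Heatr5b and Fer (0.983 each). The coding probe was not well above background on any soleus array, so its muscle values were read near background. The same holds for the C2C12 values of Cdkn2b and Cdkn1c.

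Partners, regulators and targets of the members were read as lists, with 1 probe per gene. Their counts in cells stand beside 69% of all 14156 genes tested, 36.6% higher and 32.4% lower. Of the D-type cyclins with CDK4 and CDK6, the INK4 targets, 1 of 5 was higher and 3 were lower in HDAC4 and 5 cells, with a list median of -0.40 beside 0.05 for all genes tested. Ccnd2, cyclin D2, rose by 3.49 (adjusted p = 3.06e-14), whereas cyclin D3 (Ccnd3) fell, at -1.26 (7.94e-07), as did Cdk6, at -1.09 (1.10e-10). Of cyclins E and A with CDK2 and its phosphatase, 1 of 5 passed, Cdc25a with 0.48 (adjusted p = 0.000744), and the list median was 0.11. Cdkn1a, or p21, the CIP member of the CIP/KIP family, was at 3.55 in control and 2.04 in HDAC4 and 5 cells, a difference of -1.51 (SE 0.08, adjusted p = 2.55e-09). In db/db soleus Cdkn1a differed by -1.13 (SE 0.27, adjusted p = 0.492). Its groups did not overlap, as for 10.2% of all probes tested in soleus, 4.47% with db/db below. Of 7 parts of the ubiquitin ligases that turn over p27, 2 rose, Rbx1 (0.46, adjusted p = 0.00901, with saturated spots on 1 array) and Cks1b (0.46, 5.01e-05), and 1 fell, Rnf123 (-0.32, 0.00371), with a list median of 0.05.

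Downstream of the pocket proteins, 9 of 10 E2F and DP factors were tested in cells, 4 were higher and 4 lower, and their median was 0.10. Tfdp1, the DP partner of E2Fs, rose by 0.58 (adjusted p = 1.17e-05) and E2f3 by 0.48 (0.00633), whereas E2f2 was at -2.26 (1.18e-11) and the repressor E2f7 at -0.36 (0.000102). Of 18 E2F target genes of S phase, 12 were higher, 1 lower and 5 did not pass, with a median of 0.51. Among them Cdt1, which licenses replication origins, gained 1.37 (6.91e-07), measured on 6 control arrays and on only 3 HDAC4 and 5 arrays. The ribonucleotide reductase subunit Rrm2 was lower (-0.78, 6.14e-08). Of 15 DREAM target genes of G2 and mitosis 9 were higher and 1 lower, with a median of 0.46, including the spindle checkpoint kinase Ttk (1.92, 2.82e-11), Ccnb2 (0.83, 5.95e-05), with saturated spots on 4 arrays, and Cdk1 (-0.30, 0.000897). A list of MuvB, the core that DREAM shares with B-Myb, together with B-Myb itself had 3 of 6 genes higher and 1 lower. Its median was 0.42. The largest rises were those of Mybl2, which encodes B-Myb (0.88, 5.50e-09), and of the MuvB gene Lin9 (0.69, 0.00204). The MuvB gene Lin37 was lower (-0.39, 1.71e-05). In soleus none of these genes passed the adjusted p, and the medians were -0.45 over the 16 S phase genes tested and -0.94 over the 7 G2 and mitosis genes tested, beside -0.02 for all 13077 genes tested.

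**Figure D5:**
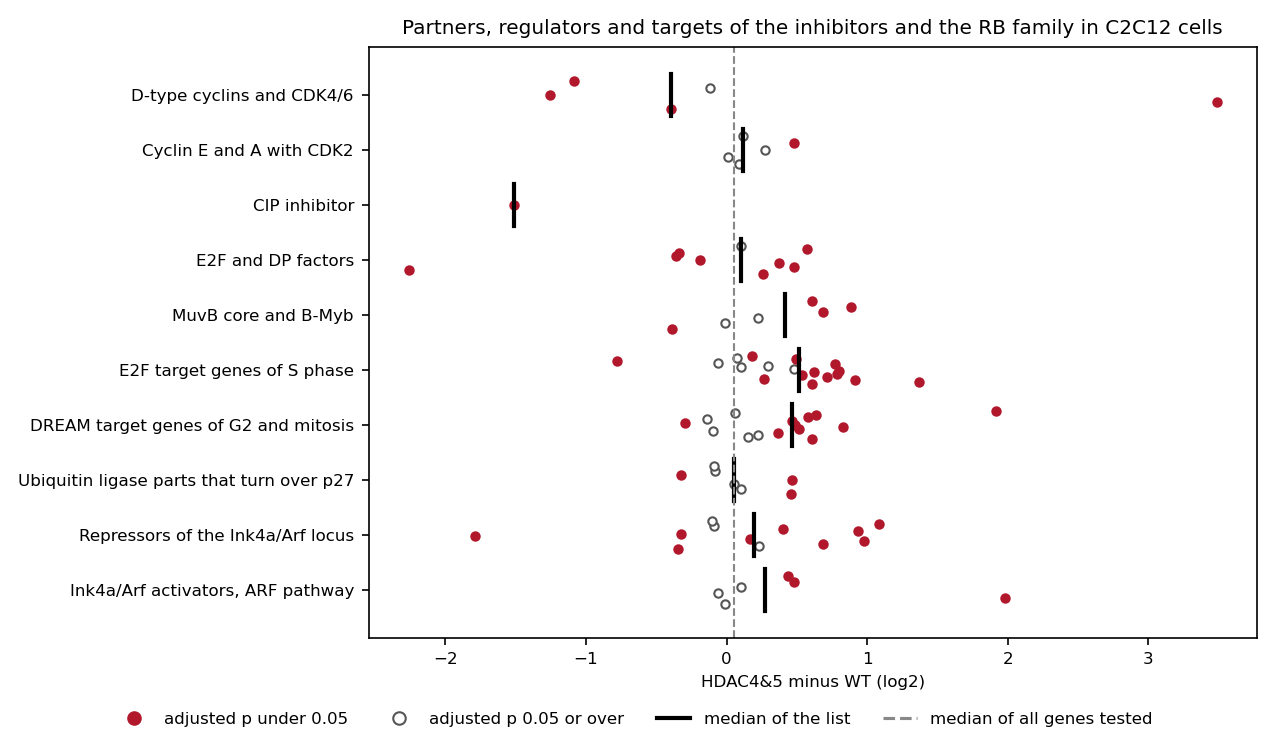
Differences between HDAC4 and 5 and control C2C12 cells (log2, horizontal axis) of the genes in 10 lists of partners, regulators and targets of the members, 1 point per gene. Filled points had a limma adjusted p under 0.05, thick bars are list medians and the dashed line is the median of all genes tested (0.05); the S phase and mitosis lists have medians of 0.51 and 0.46, with points on both sides of 0.

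Regulators of the Cdkn2a and Cdkn2b locus were also measured in the cells, where both genes were dim. Of 12 repressors tested, 6 were higher and 3 lower, with a median of 0.20. The T-box repressor Tbx3 was higher (1.09, adjusted p = 9.34e-09), as was Eed, a subunit of the PRC2 complex (0.98, 9.75e-08), while Id1 (-1.79, 3.05e-07) and the PRC1 subunit Bmi1 (-0.34, 0.0275) were lower. Of 6 genes that activate the locus or act downstream of ARF, 3 were higher and none lower, with a median of 0.27. Among them were the activator Ets1 (1.98, 3.32e-11) and Mdm2, the ubiquitin ligase that ARF binds (0.48, 8.32e-05). In soleus none of either list passed.

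RefSeq promoters on GRCm38.p6, from 250 bases before to 50 after a start site, were listed for 7 of the 9 members in 9 entries, and Rb1 and Cdkn1c had no entry. An E2F word (TTTCCCGC, TTTCGCGC, TTTGCCGC or TTTGGCGC, on either strand) was found in 2 of the 9, an Rbl1 and a Cdkn2a entry, and in 2.26% of all 32851 promoters. The Rbl1 promoter is printed, as the member whose levels were most like those of Tyms, with the word in capitals at -18 to -11 from the start site. It lies at chr2:157204485-157204784 on the minus strand.
Rbl1 promoter: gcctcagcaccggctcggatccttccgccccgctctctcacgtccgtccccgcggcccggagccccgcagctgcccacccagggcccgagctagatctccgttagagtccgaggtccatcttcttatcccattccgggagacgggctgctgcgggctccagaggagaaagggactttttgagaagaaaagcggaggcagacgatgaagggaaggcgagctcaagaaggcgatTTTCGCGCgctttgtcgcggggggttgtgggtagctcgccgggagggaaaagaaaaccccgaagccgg
The CHR word of DREAM targets (TTTGAA, either strand) was in the Cdkn2b and Rbl2 entries and in 17.9% of all promoters, and CCAAT was in 4 of the 9 entries and in 37.4% of all promoters. These matches describe the letters only.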

How the data were processed

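The authors hybridised Cy3-labelled RNA (100 ng) to Agilent arrays and deposited, per the file headers, the intensity of every spot read by Feature Extraction 9.5.1.1 (the mean, the local background, and a processed intensity that has the background removed but no scaling across arrays), along with other columns of spot flags. Their deposited matrix gives, for each array, the ratio of processed intensity to a fixed number; its columns for db/db 1 and 2 matched the scanner data of db/db 3 and 4, and those for control soleus 1 and 2 and db/db 3 and 4 matched no scanner data closely (median absolute deviation of log2 values 0.344 to 0.444, against at most 0.00152 elsewhere), so it was used by group, with the origin of 4 soleus columns unsettled. Here the log2 of the 75th percentile of an array was subtracted from the log2 of its processed intensities, spots of a probe were averaged without outlier or control spots, and saturated spots were kept. A probe was tested if all arrays of 1 or more of the groups had it well above background. limma 3.58.1 in R 4.3.3 compared groups, with Benjamini-Hochberg adjustment over all probes tested and a threshold of 0.05. Other tools were the R package for tables data.table (version 1.17.8), Python 3.11.15, numpy 2.4.6, pandas 2.3.3 and matplotlib 3.10.9. Single member probes were also compared by two-sided exact permutation tests. A list gene was read by its probe with the highest mean.

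Members and gene lists were chosen with earlier results of these data known. Besides all members, the text names Hdac4, Hdac5 and Cdkn1a, up to 2 genes per list with the largest rise and fall past the adjusted p in cells, genes within 250 kb of Cdkn2a or Cdkn2b, and the 2 genes most correlated with a member, while Myod1 is named from the marker lists. A gene that this rule would name, kept in the list counts, is not reported here. On simulated data with 200 probes changed by 2 on the log2 scale the C2C12 fit, over 20037 probes, recovered 97% of changed probes with 7.62% of calls false, and the soleus fit, over 15404 probes, 26.5% with 5.36%. The simulated arrays had independent noise, whereas the real arrays of a slide deviated together and far more probes were called in cells. The simulated shares may therefore not hold for these data, nor for smaller changes. The number of arrays limits the precision, and the soleus comparison most.

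Arrays with the same replicate number in the labels deviated together, with correlations of 0.228 to 0.584 over the 6 C2C12 pairs and 0.371 to 0.661 over the 3 soleus pairs. Same-numbered arrays shared a slide, and other arrays of the slide gave 0.202 to 0.544 and 0.269 to 0.731. Arrays of different slides gave -0.483 to 0.0696 and -0.670 to -0.326. A pairing by number therefore cannot be told apart from a shared slide. The alternatives were normexp background correction (offset 50), quantile normalization, no filter and a stricter filter, slide or replicate number as a block, each array left out, 1 probe per gene, the methods' t-test, the deposited matrix, a weight per data set and, added after the data were seen, an unadjusted p, each array left out of the fit over all arrays, and the arrays of a group on a slide averaged.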

Additional observations from a re-analysis of the deposited data

Results flagged for a closer look

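Of 28 sets of values from groups of 4 to 6 arrays, 2 held an array with a gap to its neighbour beyond Dixon's 95% limit, where chance gives about 1 in 20, or 1.4 of the 28. The further Cdkn1b probe was at -3.38 on control C2C12 array 3, the only array of the 19 where it was well above background, while the other 5 control arrays lay between -6.80 and -5.75. Rbl2 probe 1 was at -2.85 on control C2C12 array 5, below the other 5 control arrays, and its group difference without that array stayed within the leave-one-out range of -0.52 to -0.44.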

How the results depend on the processing

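Of 759 values of single member probes under the alternatives, 689 kept their direction and side of the threshold, and 33 changed sign, 23 of them in soleus and none with an adjusted p under 0.05. In cells 8 member probes passed, 2 with normexp background correction, 5 in the deposited matrix and 5 with 1 probe per gene, which tests fewer probes. Over all probes the deposited matrix gave 10583 calls, 4149 higher and 6434 lower, against 14650, 7823 higher and 6827 lower, and a median difference of -0.09 against 0.05; normexp background correction gave 10472 and a median of 0.16. In soleus the 1 call became 0 with normexp background correction, the stricter filter and the matrix, 3 with quantile normalization and with the methods' t-test after adjustment, 32 with slide as a block, 1401 with the methods' t-test and 1189 with limma at an unadjusted p; leaving out an array gave 0 to 1, with 0 without control array 1 or 2 or db/db array 2, 3 or 4. The soleus member count of 0 became 1 at an unadjusted p in the t-test and 1 in limma. Between muscle and cells 3 of 7 member probes passed with the stricter filter, which tests fewer, where 6 did. For the difference of the 2 differences 4 members became 1 with normexp background correction, 2 with a weight per data set and 7 with slide as a fixed block, and leaving out an array gave 3 to 6, with 6 without control soleus array 3 or db/db array 1. The cause of these changes was not tested.

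With the replicate number as a block, 16289 probes and 8 members passed in cells, and 1 probe and 0 members in soleus. This block changed no member call. Signs turned in soleus under that block for the 3′ Cdkn1b probe (-0.054), Cdkn2c probe 2 (-0.24) and Cdkn2b (-0.060), and with slide as a block for the same probes (-0.016, -0.26 and -0.055). In the matrix, 4 of whose 7 soleus columns are of unsettled origin, Cdkn2c probe 1 (0.010) and Cdkn2d (0.28) turned. Leaving out a soleus array moved Cdkn1b between -0.35 and 0.33, Cdkn2c probe 2 between -0.36 and 0.57, Cdkn2b between -0.11 and 0.16, Cdkn2d between -0.95 and 0.22 and Cdkn1c between -0.83 and 0.0097, and, with no change of sign, Rbl2 probe 1 between 0.45 and 1.41, Rbl2 probe 2 between 0.38 and 1.17 and Rb1 between 0.063 and 0.39. In the difference of differences it moved the Cdkn1b coding probe between -0.16 and 0.61, Cdkn2c probe 2 between -0.65 and 0.28 and Cdkn2d between -0.86 and 0.32. Elsewhere Rbl2 probe 1 in cells turned to 0.058 and the Cdkn1b coding probe in the difference of differences to -0.080, both with normexp background correction, Rbl2 probe 1 between muscle and cells to -0.014 with quantile normalization, and Cdkn2d there to 0.20 with slide as a random block.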

Other observations

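The 10 spots of the Cdkn2a probe on each of the 19 arrays gave 190 readings. Of these, 5 were well above background, and all 5 were marked as outliers by the scanner software. None of the 177 spots kept was well above background.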
